A study of Homo sapiens with 6 samples.

Results

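The Notch genes described here are 10 rows of the count table, taken by name: the receptors NOTCH1, NOTCH2 and NOTCH3, the ligands JAG1, JAG2 and DLL1, the nuclear proteins RBPJ and MAML1, and the target genes HES1 and HEY1. All 10 were present, of 46287 rows in all, and all 10 passed the filter on low counts, which 12293 genes passed. The cells were HaCaT, a spontaneously immortalised line of human epidermal keratinocytes, grown as a monolayer in high-glucose medium with serum and harvested before confluence. There were 3 libraries of wild-type control cells and 3 of cells with a homozygous knockout of SDR42E1, a short-chain dehydrogenase/reductase gene linked to vitamin D, made with CRISPR/Cas9. The labels call the replicates biological without saying whether they were separate cultures or edited clones, and a p-value here measures no more than the spread among these 6 libraries, which may be technical.

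Notch is a signalling pathway between touching cells. A ligand of the Jagged or Delta family on one cell pulls on a Notch receptor on its neighbour, the receptor is cut by an ADAM protease and then by gamma-secretase, and the freed intracellular part enters the nucleus, where it binds RBPJ and a Mastermind protein and switches on genes such as those of the HES and HEY repressors. In the epidermis Notch signalling is known for moving keratinocytes out of the basal state and into differentiation.

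In the knockout cells 6 of the 10 genes fell, 2 rose and 2 did not pass the test. NOTCH3 fell 15.5-fold, HEY1 2.82-fold, JAG1 1.86-fold, NOTCH1 1.64-fold, JAG2 1.37-fold and MAML1 1.20-fold. NOTCH2 rose 1.28-fold and HES1 1.38-fold, so the receptors and the targets each split in direction. A gene was called at an adjusted p under 0.05 in the quasi-likelihood test of edgeR, which compared knockout with control. Of all tested genes 50.4% were called, 25.8% lower and 24.6% higher, so a called gene was common in these cells. A fall of at least 2-fold was called for 5.23% of tested genes and for 2 of the 10 members, NOTCH3 and HEY1, and a rise of at least 2-fold for 1.91% of tested genes and for 0 of the 10 members. The median log2 fold change was -0.36 over the members and -0.00402 over all tested genes. Levels are given as CPM, counts scaled to a common library size after TMM adjustment. The library values of the groups did not overlap for 8 of the 10 members, and for 56.5% of all tested genes.

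**Figure D1:**
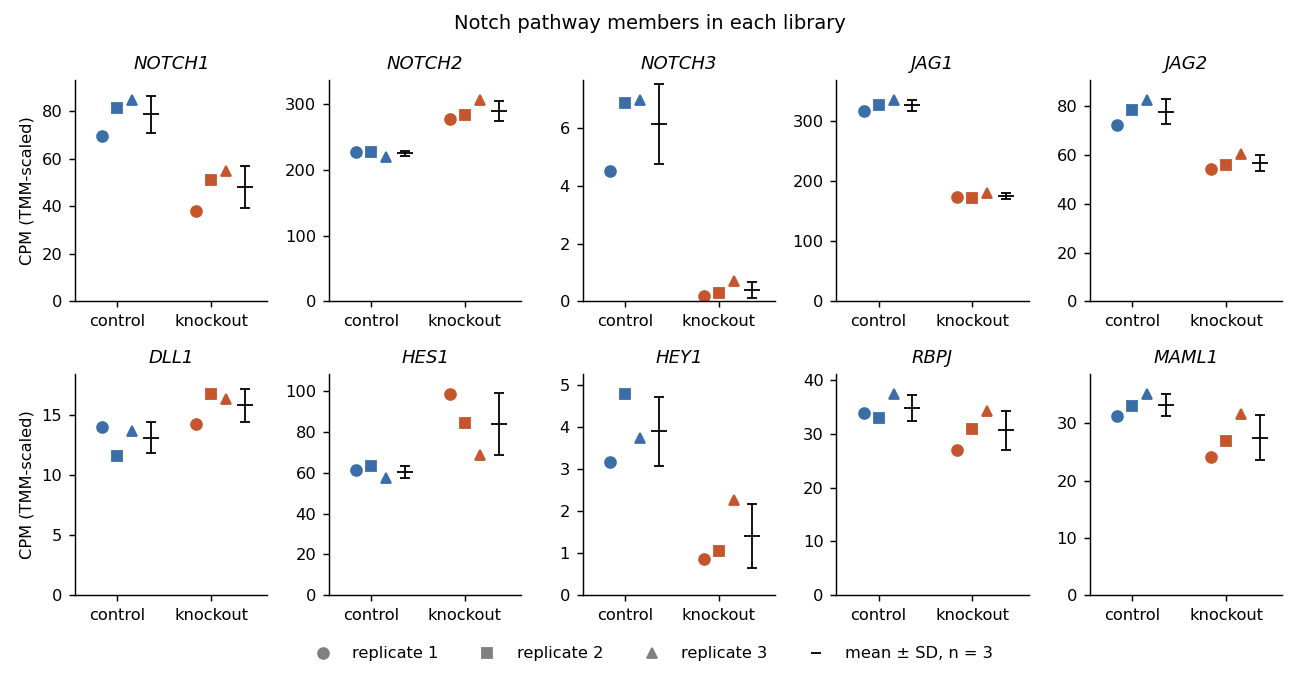
Level of each Notch member in each library, in CPM, with 3 control libraries in blue, 3 knockout libraries in orange and the mean ± SD beside them. NOTCH3 lies near 0 in the knockout, NOTCH2 and HES1 are higher there, and RBPJ and MAML1 overlap between the groups.

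The libraries held 11504473 to 16928201 counts, and the leading principal component, with 80.5% of the variance, separated control from knockout. SDR42E1 was lower in each knockout library (268, 265 and 237 counts) than in each control library (650, 822 and 601), with a log2 fold change of -1.16 (SE 0.08, adjusted p = 2.69e-14 in edgeR), so its RNA was reduced and still present. Keratinocyte markers summed to 8320 to 8810 CPM in control and 8150 to 8460 CPM in knockout libraries, but within this list 4 genes rose (KRT17, LAMB3, TP63 and SFN), 2 fell (KRT5 and PKP1) and 4 did not pass. KRT5, the basal keratin, went from 2698 ± 124 to 1709 ± 67.5 CPM, and KRT17, which has near-identical copies, from 734 ± 8.05 to 1161 ± 50.4 CPM (SD, n = 3). The summed markers of endothelial, mural, fibroblast and melanocyte cells were each at 5.61 CPM or less in every library. In bulk RNA, fewer cells expressing a gene and less RNA per cell cannot be told apart.

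Among the receptors NOTCH3 and NOTCH1 fell and NOTCH2 rose. NOTCH3 had 63, 119 and 86 counts in the control libraries and 2, 4 and 8 in the knockout libraries. These are levels of 4.53, 6.89 and 6.98 CPM in control cells and 0.173, 0.304 and 0.700 CPM in knockout cells. Every control library lay above every knockout library, and the few knockout counts limit the precision of the fold. NOTCH3 passed the filter on low counts through its control libraries alone. In edgeR the log2 fold change came to -3.95 (SE 0.36; adjusted p = 9.91e-12). Knockout replicate 3 held 8 of the 14 remaining counts, and without it the log2 fold change was -4.61. Leaving out each library in turn gave -4.61 to -3.62.

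NOTCH3 is also known as a receptor of mural cells, the cells that wrap small vessels. Of the 6 mural markers counted, all had at least 1 count, and they summed to 2.81 to 4.14 CPM in control and 1.82 to 1.97 CPM in knockout libraries. In each control library NOTCH3 alone, at 4.53 CPM or more, was above that sum. CPM is not scaled to gene length, so this does not compare amounts of RNA between genes. A further mural marker, RGS5, had no row in the count table. Of the 2 tested, CSPG4 was called lower (adjusted p = 0.035 in edgeR) and ACTA2 did not pass. CSPG4 had 14, 32 and 17 counts in control and 5, 4 and 14 in knockout libraries, and its CPM overlapped between the groups. The mural receptor PDGFRB had 10, 10 and 5 counts in control and 0, 8 and 1 in knockout libraries. The sums of 3 other lists at this low level were also lower in the knockout. Endothelial markers, all 7 with at least 1 count, summed to 3.65 to 4.28 CPM in control and 1.92 to 2.89 CPM in knockout libraries. Of 6 fibroblast markers 4 had a count (DCN and PDGFRA were at 0), with sums of 3.90 to 5.61 and 1.12 to 1.92 CPM, and of 5 melanocyte markers 4 did (TYR was at 0), with sums of 3.18 to 3.57 and 1.57 to 2.89 CPM. None of these 3 pairs of ranges overlapped, but within the lists the genes did not all fall. Of the endothelial markers CDH5 did not pass (2.04 ± 0.30 to 1.46 ± 0.28 CPM, SD, n = 3). Over the control and knockout libraries KDR had 10 and 0 counts, PECAM1 and TEK each 1 and 1, CLDN5 1 and 2, and ERG 0 and 2. PMEL, with the most counts of the melanocyte list, overlapped between the groups and did not pass. COL1A1 of the fibroblast list did not pass either. COL3A1, a fibrillar collagen, had 31, 56 and 20 counts in control and 0, 0 and 4 in knockout libraries (log2 -4.33, SE 0.62, adjusted p = 1.01e-06 in edgeR), and the endothelial VWF fell by 0.98 on the log2 scale (SE 0.38, adjusted p = 0.0315 in edgeR). Like NOTCH3, the markers CSPG4, COL3A1 and VWF passed the filter on low counts through their control libraries alone. The part of mural, endothelial, fibroblast and melanocyte cells in the results for NOTCH3 and HEY1 was not tested.

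NOTCH1, the receptor best known for driving keratinocyte differentiation, stood at 69.7, 81.4 and 84.7 CPM in control cells and 38.0, 51.2 and 54.8 CPM in knockout cells. All knockout libraries were below all control libraries, and knockout replicate 1 was lower than the others. In edgeR the log2 fold change came to -0.71 (SE 0.15; adjusted p = 0.00716), and it was -0.57 without knockout replicate 1.

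NOTCH2, the receptor with the most RNA in both groups, rose. It measured 228, 227 and 220 CPM in control and 277, 284 and 306 CPM in knockout libraries, with no overlap and a log2 fold change of 0.36 (SE 0.05, adjusted p = 8.53e-08 in edgeR). Reads of NOTCH2 may be split with the NOTCH2NL genes, partial copies of its start on chromosome 1. In the longest NOTCH2 transcript of GENCODE release 29, 2.44% of 75-base windows were also found in transcripts of NOTCH2NLA, all within the leading 848 bases. The other copies were not compared by sequence here, so the true share can be higher. Of the 4 copies tested, 2 rose, a called share of 50% against 50.4% of all tested genes. NOTCH2NLB went from 3.23 ± 0.663 to 4.87 ± 0.679 CPM and NOTCH2NLR from 2.62 ± 0.569 to 4.09 ± 1.00 CPM (SD, n = 3), while NOTCH2NLA and NOTCH2NLC had log2 values of 0.20 and 0.05 that did not pass. Both calls were lost in DESeq2 (adjusted p = 0.0739 and 0.0787) and on leaving out single libraries.

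Compared per kilobase of exon, the make-up of the receptor RNA changed while its sum overlapped between the groups. The 3 receptors together stood at 20.8 to 22.1 CPM per kilobase in control and 20.2 to 23.6 in knockout libraries (exact permutation test, two-sided, p = 1, n = 3 per group). NOTCH2 made up 59.5% to 65.3% of that sum in control libraries and 77.3% to 81.8% in knockout libraries. NOTCH1 went from 32.3% to 37.1% down to 18.1% to 22.6%, and NOTCH3 from 2.33% to 3.38% down to 0.091% to 0.316%. For each of these shares the groups did not overlap, and the exact two-sided permutation p was 0.1, the smallest that 3 libraries against 3 allow. NOTCH4, the remaining receptor gene, had 8 counts over the control and 15 over the knockout libraries and was too low to test.

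Among the ligands the Jagged genes fell and DLL1 did not pass. JAG1, the ligand with the most RNA, went from 316, 327 and 335 CPM in control cells to 174, 172 and 180 CPM in knockout cells. The spread within each group was small beside the gap, and JAG1 had the smallest adjusted p of the members (log2 fold change -0.90, SE 0.05, adjusted p = 3.57e-18 in edgeR). JAG2, its paralogue, fell from 72.3, 78.3 and 82.6 CPM to 54.2, 55.8 and 60.4 CPM (log2 -0.45, SE 0.07, adjusted p = 4.95e-07 in edgeR).

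DLL1, the Delta-type ligand of basal keratinocytes, stood at 14.0, 11.6 and 13.6 CPM in control and 14.3, 16.8 and 16.4 CPM in knockout libraries. The groups were close and did not overlap, and the log2 fold change of 0.28 (SE 0.12, adjusted p = 0.0547 in edgeR; 95% interval 0.03 to 0.52 before adjustment) did not pass. It passed without control replicate 1 (0.33, adjusted p = 0.0437) and without knockout replicate 1 (0.35, adjusted p = 0.0306).

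Summed per kilobase of exon, the 3 ligands stood at 49.7 to 53.2 CPM per kilobase in control and 31.6 to 33.9 in knockout libraries, ranges that did not overlap (exact two-sided permutation p = 0.1, the smallest possible). JAG1 supplied 67.8% to 68.9% of the sum in control and 57.0% to 59.1% in knockout cells, and DLL1 7.07% to 8.76% and 14.0% to 16.1%. Of the ligand genes outside the 10, DLL4 had 3 counts over the control and 1 over the knockout libraries. DLL3 and DLK1 had 0 in every library, which allows up to 3 counts, or 0.174 to 0.262 CPM, per library, for counting error only. DLK2, a Notch ligand-like transmembrane protein, was the 1 tested gene of that list and fell from 10.8 ± 0.417 to 4.32 ± 0.639 CPM (SD, n = 3; log2 -1.32, SE 0.17). Its exons overlap those of ABCC10 on the opposite strand, and the sources used here do not give the strand setting of the counting.

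**Figure D2:**
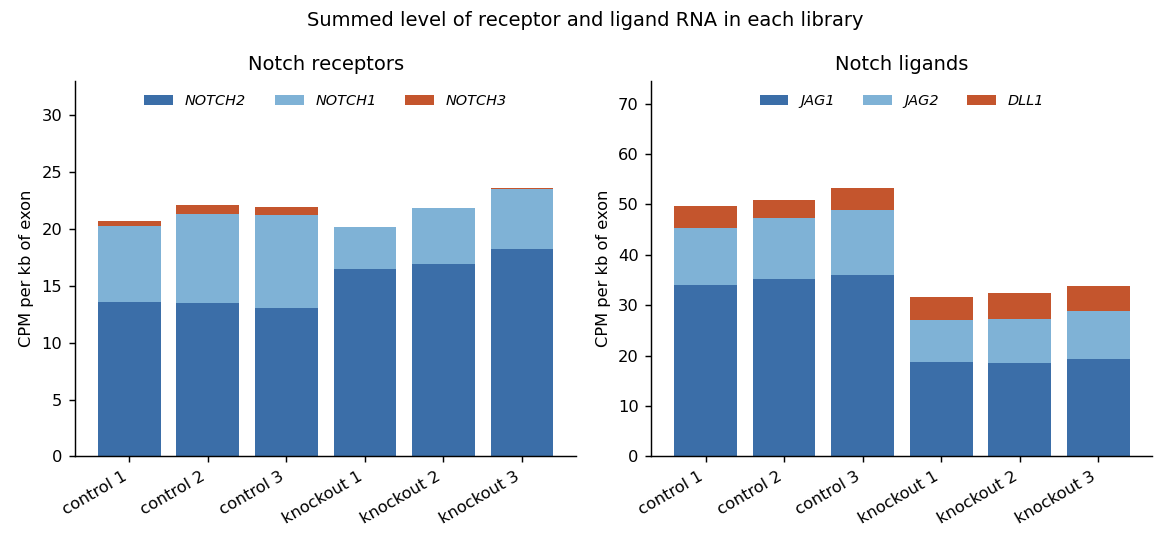
Stacked levels of receptor RNA (left) and ligand RNA (right) in each of the 6 libraries, in CPM per kilobase of exon. The receptor sums overlap between the groups at 20.2 to 23.6 while NOTCH2 takes a larger part in the knockout, and the ligand sums fall from 49.7 to 53.2 down to 31.6 to 33.9.

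In the nucleus the changes of the members were small. RBPJ, the DNA-binding protein of the pathway, measured 33.9, 32.9 and 37.5 CPM in control and 27.0, 30.9 and 34.2 CPM in knockout libraries, which overlapped (log2 -0.18, SE 0.09, adjusted p = 0.0986 in edgeR; 95% interval -0.36 to 0.00454 before adjustment). It passed without knockout replicate 3, at -0.25 (adjusted p = 0.0273). MAML1, a Mastermind coactivator, measured 31.3, 33.0 and 35.2 CPM in control and 24.0, 26.8 and 31.7 CPM in knockout libraries. It also overlapped, and its call (log2 -0.27, SE 0.09, adjusted p = 0.015 in edgeR) was lost without control replicate 3 (adjusted p = 0.0747), knockout replicate 1 (0.138) or knockout replicate 2 (0.0589).

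The target genes HES1 and HEY1, both transcriptional repressors of the basic helix-loop-helix class, moved in opposite directions. HES1 stood at 61.2, 63.2 and 57.4 CPM in control and 98.8, 84.5 and 68.7 CPM in knockout libraries. Each knockout library was above each control library, with knockout libraries spread far wider (SD 15.1 against 2.94 CPM). In edgeR the log2 fold change came to 0.47 (SE 0.12; adjusted p = 0.0155), and its call was lost without control replicate 1 (adjusted p = 0.0677), control replicate 3 (0.0546) or knockout replicate 2 (0.0787).

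HEY1 had 44, 83 and 46 counts in the control and 10, 14 and 26 in the knockout libraries, or 3.17, 4.80 and 3.73 CPM against 0.865, 1.06 and 2.27 CPM. The groups did not overlap, and the highest knockout library was again replicate 3. In edgeR the log2 fold change came to -1.49 (SE 0.31; adjusted p = 0.000139).

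Outside the 10, the target genes HES4 and NRARP fell, and HES2, listed here as a member of the HES family, rose. The list of further HES, HEY and feedback genes and the TLE corepressors had 8 tested genes. Of these 4 fell, 1 rose and 3 did not pass, a called share of 62.5% against 50.4% of all tested genes. The median log2 fold change of the list was -0.60. NRARP, a Notch target that feeds back to dampen the pathway, fell from 17.0 ± 1.18 to 9.77 ± 1.30 CPM (log2 -0.80, SE 0.13). HES4 fell from 7.39 ± 0.357 to 4.34 ± 0.604 CPM (log2 -0.76, SE 0.18), and TLE2, a corepressor that HES proteins recruit, from 1.52 ± 0.343 to 0.567 ± 0.347 CPM (log2 -1.39, SE 0.45). TLE2 held 25, 28 and 14 counts in control and 8, 11 and 2 in knockout libraries. It passed the filter on low counts through its control libraries alone. The TLE2 call was lost without knockout replicate 3 (log2 -0.98, adjusted p = 0.0812 in edgeR). TLE4, also a corepressor, fell by 0.46 and HES2 rose by 0.33 on the log2 scale. HES6 measured 1.66 ± 0.237 in control and 1.00 ± 0.200 CPM in knockout cells and did not pass (log2 -0.73, adjusted p = 0.0964 in edgeR). HES5, with 22 counts over the control and 7 over the knockout libraries, HEY2, with 8 and 4, HES7, with 4 and 1, and HEYL, with 1 and 0, were too low to test.

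The 3 target promoters are shown because their genes moved differently: HES1 rose, and HES4 and NRARP fell. Each runs from 250 bases before to 50 after the RefSeq transcription start (GRCh38.p14, strand of the gene), and capitals mark TGGGAA, the core of the motif that RBPJ binds. HES1 lies at chr3:194135898-194136197 on the plus strand, HES4 at chr1:1000048-1000347 and NRARP at chr9:137302222-137302521, both on the minus strand.
HES1: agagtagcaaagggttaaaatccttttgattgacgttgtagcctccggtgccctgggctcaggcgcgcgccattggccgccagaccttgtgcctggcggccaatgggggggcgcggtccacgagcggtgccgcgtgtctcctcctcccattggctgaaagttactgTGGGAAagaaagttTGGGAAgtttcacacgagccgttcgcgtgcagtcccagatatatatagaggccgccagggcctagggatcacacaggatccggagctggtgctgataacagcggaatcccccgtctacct
HES4: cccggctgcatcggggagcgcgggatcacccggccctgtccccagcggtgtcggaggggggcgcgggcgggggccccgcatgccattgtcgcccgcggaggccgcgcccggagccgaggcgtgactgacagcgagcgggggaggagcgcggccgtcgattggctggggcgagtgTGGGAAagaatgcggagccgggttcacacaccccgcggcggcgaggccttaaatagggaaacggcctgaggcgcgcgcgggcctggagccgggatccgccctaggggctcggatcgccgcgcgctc
NRARP: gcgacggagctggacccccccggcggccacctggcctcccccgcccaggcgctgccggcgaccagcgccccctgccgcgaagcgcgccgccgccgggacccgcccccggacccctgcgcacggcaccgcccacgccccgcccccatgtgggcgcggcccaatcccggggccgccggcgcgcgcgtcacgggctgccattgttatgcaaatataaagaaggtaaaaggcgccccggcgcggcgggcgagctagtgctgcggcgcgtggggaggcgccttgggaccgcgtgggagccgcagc
HES1 held the core at 84 and 70 bases before the start, the former within the longer motif GTGGGAA, and HES4 held GTGGGAA at 77 bases before it. Both promoters shared the 12-base run tgTGGGAAagaa, the longest run common to these windows. NRARP held neither form in this window. Searched on both strands, GTGGGAA was found in 6.25% of 35116 promoters of this length and TGGGAA, which it contains, in 24.0%. Among the 9 HES and HEY genes, 8 had a promoter in the table and 5 of those held GTGGGAA (HES1, HES4, HES5, HEY2 and HEYL), as did 1 of the 43 other Notch pathway genes with a promoter, SPEN. Of the 7 members with a promoter, HES1 was the 1 that held it. The N box CACNAG, a motif that HES1 itself binds, was found 4 times in the HES1 promoter, against 38.0% of promoters with at least 1 and 8.94% with at least 2. Its matches did not reach the marked cores. A match describes the letters in this window and not binding.

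Over all the pathway lists, from the other receptors, ligands and NOTCH2 copies to the machinery, targets and corepressors, there were 70 genes beside the 10. Of these 60 were tested, of which 15 fell, 9 rose and 36 did not pass, a called share of 40.0% against 50.4% of all tested genes. Their median log2 fold change was -0.000185. Called genes of these lists with an absolute log2 change of at least 0.5 are given by rule, as are the 2 smallest adjusted p of a list with fewer than 2 such genes (FURIN and NCSTN), and other called ones were chosen after their values were seen. Mean ± SD values of list genes are over n = 3 libraries a group. Among list genes given by rule edgeR's adjusted p was at most 0.00916 (TLE2), apart from NOTCH2NLB and NOTCH2NLR (0.0377 and 0.0387).

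Among 9 tested genes of the enzymes that cut the receptors 2 rose, 1 fell and 6 did not pass (median 0.08). The called share was 33.3%, against 50.4% of all tested genes. FURIN, which cuts the receptor during secretion, rose from 70.0 ± 3.41 to 81.9 ± 4.05 CPM (log2 0.22, SE 0.06). NCSTN, a gamma-secretase subunit, fell from 54.6 ± 1.71 to 44.7 ± 2.77 CPM (log2 -0.29, SE 0.07), and PSEN2, a catalytic subunit, rose by 0.31, a call lost without knockout replicate 1 (adjusted p = 0.0753). NCSTN lies on chromosome 1 among genes that were lower too: 18 of its 20 nearest tested genes were below 0, with a median of -0.40. PSEN2, which rose, lies elsewhere on chromosome 1, and 18 of its 20 nearest tested genes were also below 0 (median -0.26). The exons of NCSTN overlap those of COPA on the opposite strand. The proteases ADAM10 and ADAM17 had log2 values of 0.08 and 0.03 and did not pass.

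Among 8 tested glycosylation genes 1 rose, 1 fell and 6 did not pass (median 0.01), a called share of 25% against 50.4% of all tested genes. Both called genes encode fringe enzymes, which extend sugars on the receptors and tune their choice of ligand. LFNG fell from 20.6 ± 1.74 to 12.6 ± 1.62 CPM (log2 -0.70, SE 0.12), and MFNG rose from 2.64 ± 0.328 to 4.88 ± 0.397 CPM (log2 0.90, SE 0.24). For the third fringe, RFNG, the log2 value of -0.26 was not past the threshold.

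Of 13 tested genes of ubiquitination and endocytosis 3 fell, 1 rose and 9 did not pass (median 0.03). The share called was 30.8%, against 50.4% of all tested genes. NEURL1B, a ubiquitin ligase of Notch ligands, fell from 7.66 ± 0.742 to 2.21 ± 0.600 CPM (log2 -1.80, SE 0.22). DTX4, a Deltex ligase that acts on receptors, fell from 54.4 ± 0.189 to 26.5 ± 2.34 CPM (log2 -1.04, SE 0.08). The ligases ITCH and NEDD4, which promote receptor turnover, rose by 0.40 and fell by 0.26 on the log2 scale. MIB1, a ligase of ligands, was not past the threshold (log2 0.03).

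Nuclear cofactors and turnover genes had 5 falls, 2 rises and 10 not past the threshold among 17 tested (median -0.05). Called genes made up 41.2% of them, against 50.4% of all tested genes. MAML2, a Mastermind coactivator like MAML1, fell from 35.3 ± 3.36 to 14.6 ± 3.87 CPM (log2 -1.28, SE 0.14), and the acetyltransferase KAT2B from 12.5 ± 2.88 to 6.36 ± 1.09 CPM (log2 -0.98, SE 0.17). The corepressor NCOR1 changed by -0.48, the acetyltransferase KAT2A by -0.35 and the demethylase KDM5A by -0.17. NCOR1 and KAT2A lie on chromosome 17, where the medians of their 20 nearest tested genes were -0.29 and -0.51. CCNC and CDK8, the cyclin and kinase that mark the intracellular receptor for breakdown, each rose by 0.29. MAML3, with 34 counts over the control and 11 over the knockout libraries, was too low to test.

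**Figure D3:**
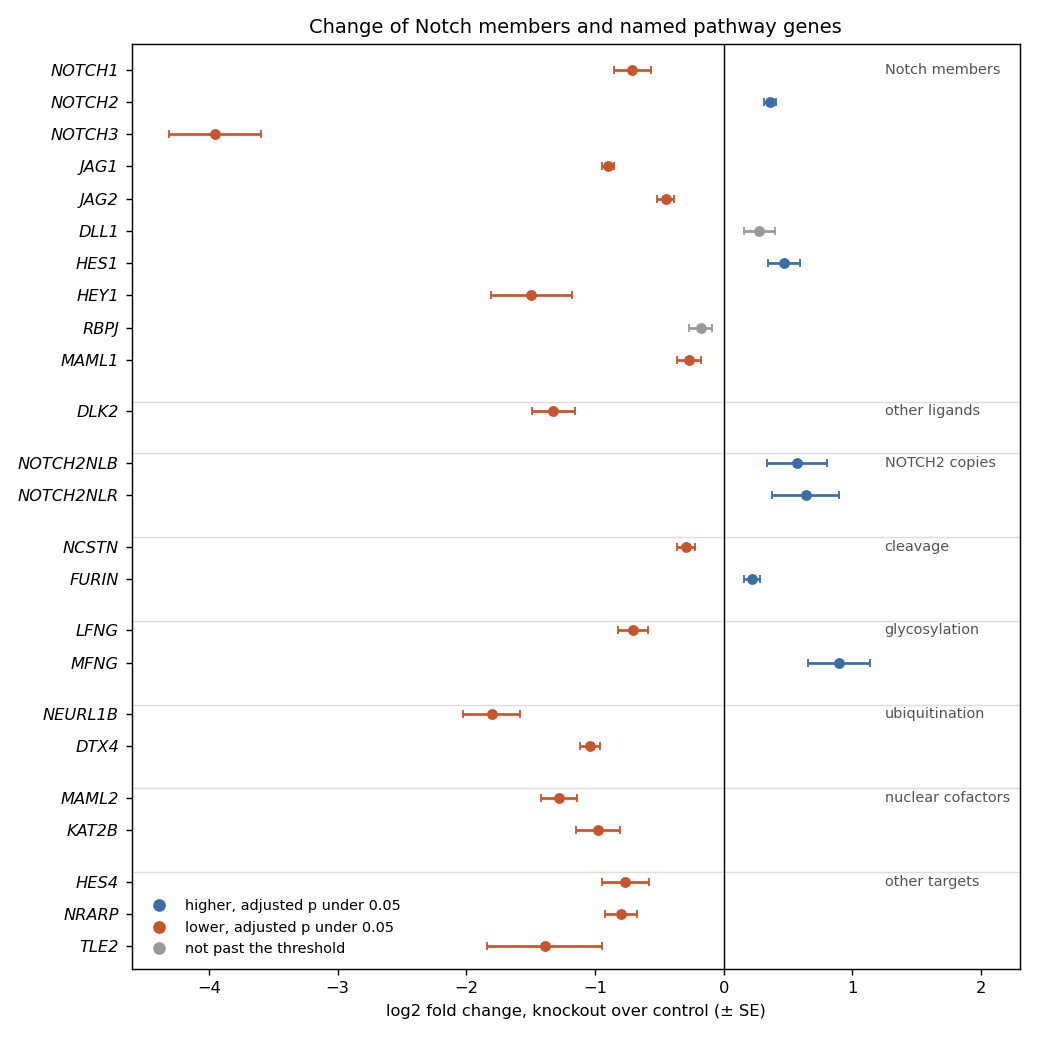
Log2 fold change of knockout over control with its SE for the 10 members and for the pathway genes named by rule, grouped by role. NOTCH3 lies at -3.95, HEY1 at -1.49 and NEURL1B at -1.80, while NOTCH2, HES1 and MFNG lie above 0.

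The order of the members by RNA level, in CPM per kilobase of exon, changed at the top. In control cells JAG1 led at 35.0 ± 1.01, followed by HES1 (29.4 ± 1.42), NOTCH2 (13.4 ± 0.258), JAG2 (12.1 ± 0.804), NOTCH1 (7.57 ± 0.761), MAML1 (5.58 ± 0.325), DLL1 (4.06 ± 0.399), RBPJ (3.76 ± 0.261), HEY1 (1.21 ± 0.257) and NOTCH3 (0.653 ± 0.148; SD, n = 3). Of these neighbours in rank, DLL1 and RBPJ overlapped. In knockout cells HES1 led at 40.7 ± 7.32, before JAG1 at 18.8 ± 0.463 and NOTCH2 at 17.2 ± 0.908. JAG2 (8.88 ± 0.505) followed, and DLL1 (4.90 ± 0.417), MAML1 (4.63 ± 0.649), NOTCH1 (4.62 ± 0.856) and RBPJ (3.32 ± 0.391) formed a run in which each gene's libraries overlapped those of the next. HEY1 (0.433 ± 0.236) and NOTCH3 (0.0417 ± 0.0292) came last and did not overlap. Exon lengths were the union of all annotated exons, so isoforms that the cells do not use lower a level.

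Among the knockout libraries the members tended to be high and low in the same libraries. Knockout replicate 3 was the highest of the 3 for 8 of the 10 members, all except HES1 and DLL1, and knockout replicate 1 was the lowest for 8, all except HES1 and JAG1. HES1 ran the other way, highest in replicate 1 and lowest in replicate 3. Over all tested genes replicate 3 was highest in 33.5% and replicate 1 lowest in 32.6%. Genes of 1 library share its scaling, and this pattern was seen in the data and is given with no test.

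The genes around each member on its chromosome had median log2 fold changes nearer to 0 than those around SDR42E1. For SDR42E1, on chromosome 16, all 20 of the nearest tested genes were below 0, with a median of -0.57. For the members the medians of the nearest 14 to 20 genes ran from -0.12 (RBPJ) to 0.19 (HEY1). NOTCH3, on chromosome 19 (15159038 to 15200981, minus strand), had neighbours with a median of 0.16. NOTCH1, on chromosome 9 (136494433 to 136545786, minus strand), had 0.12, and JAG1, on chromosome 20 (10637684 to 10673999, minus strand), -0.02. NOTCH2, on chromosome 1 (119911553 to 120069626, minus strand), had -0.00583. All positions are on GRCh38.

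**Figure D4:**
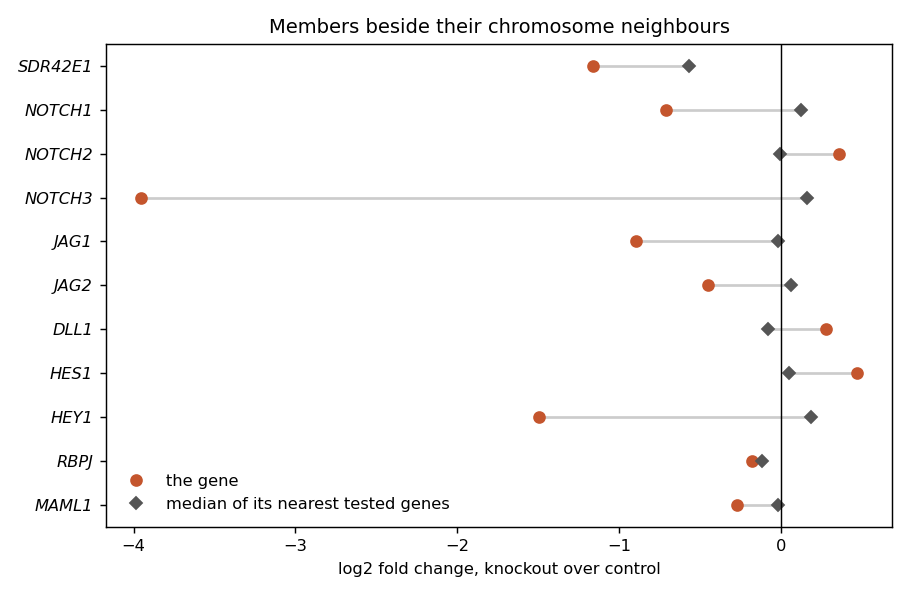
Log2 fold change of SDR42E1 and of each member (circles) beside the median of up to 20 nearest tested genes on the same chromosome (diamonds). The members' neighbours lie between -0.12 and 0.19, and those of SDR42E1 at -0.57.

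The search for like profiles took only genes whose log2 CPM averaged 2 or more, a limit that NOTCH3 itself (0.81) does not reach. The genes whose centred log2 CPM over the 6 libraries lay nearest to the most lowered member, NOTCH3, were SOST (Euclidean distance 0.625), NTRK2 (0.875) and PEG10 (1.01), where NOTCH3 itself lay 4.58 from a flat profile. Their log2 fold changes were -3.34, -4.21 and -3.27, so their levels too fell in the knockout. Nearest to HES1, the member with the largest rise over all 6 libraries, were FXYD5 (0.177), C9orf40 (0.197) and KAZN (0.201), where HES1 lay 0.678 from a flat profile, with log2 fold changes of 0.39, 0.41 and 0.57. Without knockout replicate 1 NOTCH2 rose more than HES1 (log2 0.39 against 0.34). These profiles share the same 6 libraries, and most of each distance from flat is the difference between the groups.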

How the data were processed

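The authors deposited raw read counts per gene in 1 table with a column per library, on GRCh38 per the submitters' processing notes. Libraries were stranded total RNA per the labels' protocols; for the aligner, the counter and its strand setting the sources used here give nothing. Columns were matched to samples by name. Counts were tested in edgeR 4.0.16 (R 4.3.3): filterByExpr (minimum count 10, minimum total 15), TMM scaling, and the robust quasi-likelihood F test of knockout against control over all 6 libraries without a block, two-sided, with Benjamini-Hochberg adjustment over 12293 genes at a threshold of 0.05. The SE was taken as log2 fold change divided by root F, without sign. In a simulation of this comparison with 12293 genes, 50 of them changed at each size, the test recovered 42% of genes changed 1.25-fold, 84% at 1.5-fold and 98% at 2-fold. It made 9 calls among unchanged genes. The simulated spread followed the trend with level and not each gene's own spread, and far fewer genes were changed than were called here. Recovery in the real data may therefore differ. Exon lengths and positions came from GENCODE release 29 (11826 tested genes placed; neighbours were 10 tested genes on either side whose mean log2 CPM was 2 or more), and promoters from RefSeq.

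The members and lists were chosen with earlier results of these data known. The named genes were the 10 members, SDR42E1, list genes past the threshold with an absolute log2 fold change of at least 0.5 (or the 2 with the smallest adjusted p), and the 3 genes with a mean log2 CPM of 2 or more nearest in profile to the most lowered and most raised member. Chi-square tests of every pair of libraries in a group, on genes with 20 or more counts in the pair, gave 2.65 to 4.49 per degree of freedom, above sampling noise, and each library was kept. Depth ran from 11504473 to 16928201 counts, so 1 count is 0.0579 to 0.0875 CPM. Alternatives were DESeq2 1.42.0, limma-voom (limma 3.58.1), other scalings and filters, a replicate block, and leaving out each library. A further marker list is not reported here.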

Additional observations from a re-analysis of the deposited data

How the results depend on the processing

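All alternatives were planned. Against 6197 called genes they gave 5338 to 6425, and 6 to 9 of the 10 members; 0 results reversed. Of 41 genes followed, 32 had the same direction and the same call under each of the 13 alternatives that gave a value. Leaving out 1 library moved 9 genes across it: log2 fold changes then ran from 0.19 to 0.35 for DLL1, 0.34 to 0.60 for HES1, -0.254 to -0.0897 for RBPJ and -0.37 to -0.18 for MAML1, and TLE2, PSEN2, KAZN, NOTCH2NLB and NOTCH2NLR were the others; the cause was not tested. Of the NOTCH2 copies, 2 were called by edgeR, 0 by DESeq2 (2 at an unadjusted p under 0.05), 1 by limma-voom, and 0 to 2 without single libraries. Deviations of libraries that share a replicate number were hardly correlated (0.046, -0.035 and 0.062), and 1 of 3 control libraries matched its own number best, so no pairing was assumed. With the replicate block 6425 genes and the same number of members, 8, were called. Among genes with few counts, NOTCH3, HEY1, TLE2, NOTCH2NLB and NOTCH2NLR had SEs of 0.23 to 0.45 on the log2 scale.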
